A study of Rattus norvegicus with 8 samples.

Results

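The genes described here are 53 genes of DNA replication and S phase, taken by gene name and sorted by role into the helicase, origin recognition and licensing, origin firing, polymerases and primase, the sliding clamp with Okazaki fragment joining, nucleotide supply, histone deposition, and entry into S phase. They were taken by name and role, with earlier results of these data known. On a 1-colour Agilent rat expression array, 52 of the 53 had a probe under their own name, with 74 probes on 156 spots among 36174 gene names and 45598 probes in all. Chaf1a had none. Of these 52 genes, 43 passed the filter on dim signals with 57 probes and were tested, and 9 did not pass it. Each gene is given by its brightest tested probe. A level below is the log2 processed signal minus the 75th percentile of that array, so that 0 is a bright signal and a step of 1 is a factor of 2, and levels are compared only between samples of the same probe.

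RNA came from cells cut out of liver sections with an ultraviolet laser. All livers were those of F344 rats that had received retrorsine, a plant alkaloid that blocks the division of mature hepatocytes, followed by partial hepatectomy, so that every group carries this injury. MHs, mature hepatocytes (n = 2), and control SHPCs, clusters of small hepatocyte-like progenitor cells (n = 3), were cut, per the labels, in control livers, taken here as livers without BM-MCs, although a passage of the study's text speaks of MHs from transplanted livers. SHPCs with BM-MCs (n = 3) were clusters from recipients given bone marrow-derived mesenchymal cells, cultured from a male donor, through the spleen. The labels give every sample as the DPPIV+ strain, whereas the methods describe female DPPIV- recipients, and no age of the recipients was found in either. Per the methods, recipients were killed at a single time point after transplantation. Clusters were recognised under the microscope by their form, and the animal behind each sample is stated in neither source. The p-values therefore cover only sample-to-sample spread, part of which may be technical.

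Between 57.0% and 61.5% of spots were well above background on each array. The 8 defining hepatocyte markers (Alb, Apoa1, Ttr, Serpina1, Tf, Cps1, Hnf4a and Ass1) were above background in every sample with complete marks, and their summed linear level, relative to the 75th percentile, ran from 719 to 988. The 7 Kupffer cell and macrophage markers summed to between 42.8 and 50.1 in MHs, to between 23.6 and 34.6 in control SHPCs and to between 29.9 and 43.0 with BM-MCs. Clec4f, their brightest gene, weighs most in these linear sums. It differed from MHs by -0.63 in control SHPCs and by -0.26 with BM-MCs on the log2 scale. Cd163 differed by -0.56 and -0.014, and Marco, the only 1 of the 7 above MHs, by 0.079 and 0.048. The 5 granulocyte markers, of which Mpo and Elane were not well above background on any array with marks, summed to 0.407 and 1.51 in MHs, to between 1.15 and 1.58 in control SHPCs and to between 0.378 and 0.499 with BM-MCs. Erythroid markers summed to 2.93 in control SHPC replicate 3 and to between 0.393 and 0.91 elsewhere. Of the 41 tested genes of these and the other cell type lists, 0 passed the adjusted threshold in any of the 3 comparisons by limma or by the methods' t-test, and at an unadjusted p under 0.05 limma had 12 between control SHPCs and MHs, 8 between BM-MC samples and MHs, and 11 between the SHPC groups. Of all 23111 probes, 1898 were higher and 2538 lower at that p in the first comparison, 1695 and 1375 in the second, and 2465 and 1369 in the third. Those of both comparisons with MHs were Apoa1, at 0.73 and 0.57 on the log2 scale in control and BM-MC SHPCs against MHs, the stellate cell and fibroblast markers Col1a1 (1.11 and 0.87) and Pdgfrb (0.47 and 0.71), and the macrophage markers Cd68 (-0.84 and -0.58) and Csf1r (-0.69 and -0.72). Of the other stellate cell and fibroblast markers, Lrat was at -0.63 and -0.48, Des at 0.10 and 0.39, Acta2 at 0.11 and 0.13, and Col3a1 at -0.0027 and 0.060. The biliary marker Krt19 differed by 1.76 between control SHPCs and MHs. Of the other biliary markers, Epcam differed by 0.53, Sox9 by 0.10 and Cldn7 by -0.44, and Spp1 was not tested. Krt7, not well above background in any control SHPC sample, differed by 0.95. S100a8 and S100a9 were among the markers at that unadjusted p between the SHPC groups. The summed level of the 6 biliary markers was 0.498 and 0.348 in MHs and between 0.481 and 0.627 in all SHPCs, and that of the 6 stellate cell and fibroblast markers 4.51 and 4.69 in MHs, between 4.21 and 4.45 in control SHPCs and between 3.87 and 5.71 with BM-MCs. The part of these markers in the results below was not tested. The MHs and control SHPC replicates 1 and 2 lay in the first set of 4 arrays on the slide. The second set held all BM-MC samples with control SHPC replicate 3.

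Before a cell copies its DNA, the origin recognition complex, Cdc6 and Cdt1 load the Mcm2 to Mcm7 ring onto origins, a step called licensing. At S phase the Cdc7 and Dbf4 kinase and cyclin E with its kinase partner turn loaded rings into active helicases with Cdc45 and the GINS complex, and primase, polymerases, the Pcna clamp and ligase then copy both strands. Most of these genes are transcribed in a wave under E2F factors as a cell leaves quiescence, and in the adult liver, where hepatocytes rarely divide, they are known to rise when hepatocytes re-enter the cycle after tissue loss.

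Promoter windows from RefSeq (build GRCr8, 250 bases before to 50 after the annotated start) were found for 44 of the 53 genes, and not for Orc1, Orc4, Cdc6, Mcm4, Gins4, Rrm2, Ccne2, E2f1 and E2f8. The E2F letters TTTCCCGC, TTTCGCGC, TTTGCCGC or TTTGGCGC were searched on both strands, where a match on one strand can overlap a match on the other. They stood in 19 of these 44 genes (43.2%), against 2.14% of all 33469 windows and 2.74% of the 21851 windows of protein-coding genes. Among genes higher in control SHPCs than in MHs past the adjusted threshold given below, 5 of 15 with a window held them (33.3%), and among the tested genes that did not pass, 10 of 21 did (47.6%). CCAAT stood in 24 of the 44 (54.5%, against 37.5% of all windows) and shared bases with an E2F match in 1 gene, and GGGCGG stood in 29 (65.9%, against 33.1%) and shared bases with none. These shares describe letters and were not tested. The 150 bases before the start are shown, 5′ to 3′ on the gene's strand, for 3 genes that rose in control SHPCs (Mcm6, Gins1, Gins3) and for 2 whose levels did not pass (Tyms, Orc3), with the E2F letters in capitals.
Mcm6, chr13:42404353-42404502, minus strand: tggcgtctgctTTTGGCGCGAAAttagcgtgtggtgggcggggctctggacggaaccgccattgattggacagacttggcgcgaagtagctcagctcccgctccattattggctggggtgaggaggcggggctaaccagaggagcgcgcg
Gins1, chr3:160184770-160184919, plus strand: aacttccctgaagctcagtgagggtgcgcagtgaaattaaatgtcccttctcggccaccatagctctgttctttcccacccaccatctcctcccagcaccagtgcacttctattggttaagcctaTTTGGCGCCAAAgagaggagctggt
Gins3, chr19:9434680-9434829, minus strand: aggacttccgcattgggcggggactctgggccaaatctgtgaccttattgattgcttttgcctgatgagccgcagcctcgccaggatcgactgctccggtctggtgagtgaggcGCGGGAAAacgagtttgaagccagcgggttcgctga
Tyms, chr9:120776084-120776233, minus strand: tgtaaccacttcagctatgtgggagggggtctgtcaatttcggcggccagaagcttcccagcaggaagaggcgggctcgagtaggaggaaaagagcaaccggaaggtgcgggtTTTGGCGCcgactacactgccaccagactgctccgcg
Orc3, chr5:53977795-53977944, minus strand: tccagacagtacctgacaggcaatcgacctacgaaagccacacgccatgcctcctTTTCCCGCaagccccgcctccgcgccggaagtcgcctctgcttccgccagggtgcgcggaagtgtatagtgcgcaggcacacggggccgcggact
In Mcm6 and Gins1 the capitals hold a match on each strand, overlapping by 4 bases. Asf1b, a histone chaperone gene, and Cdc45, of the active helicase, held no such letters in their windows but several CCAAT boxes, shown here in capitals on either strand.
Asf1b, chr19:41100353-41100502, minus strand: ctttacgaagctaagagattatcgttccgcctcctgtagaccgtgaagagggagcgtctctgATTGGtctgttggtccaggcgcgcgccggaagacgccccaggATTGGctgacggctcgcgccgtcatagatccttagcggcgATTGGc
Cdc45, chr11:95690028-95690177, plus strand: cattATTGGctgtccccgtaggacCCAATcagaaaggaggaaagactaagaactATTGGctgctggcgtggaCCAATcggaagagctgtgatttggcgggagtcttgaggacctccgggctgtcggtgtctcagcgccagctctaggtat

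The first comparison asks how replication genes in progenitor clusters differ from those in the mature hepatocytes of the same kind of liver. Control SHPCs had the higher level for 39 of the 43 tested genes. Of the 43, 18 rose and 0 fell past an adjusted p of 0.05 (limma with Benjamini-Hochberg adjustment over all 23111 tested probes), where 0.917% of all probes rose and 0.216% fell. At an unadjusted p under 0.05, 35 were higher and 1 (Orc3) was lower, against 1898 and 2538 of all 23111 probes. Every control SHPC sample lay above every MH sample with a value for 36 of the 43, against 18.7% of all probes, and above both MHs for 35 of the 42 with both values, since Orc2 had a single one. The median difference over the 43 was 1.37 on the log2 scale, or 2.59-fold, and -0.032 over all probes. It was 0.83 after normexp and quantile normalization. Of the 43 genes, 37 had a probe above background on all 7 arrays that carry full marks. Asf1b passed the filter on SHPC arrays only, so that it had to differ. In RNA from cut tissue, a smaller share of cycling cells and less RNA in each of them cannot be told apart. How many passed changed with single samples, to 1 (Asf1b) without MHs replicate 1, 7 without MHs replicate 2, 5 or 6 without control SHPC replicate 1 or 2, and 9 without BM-MC SHPC replicate 2. The methods' t-test found 28 of the 43 higher and 1 lower at an unadjusted p under 0.05, against 8.07% and 9.38% of all probes, and 0 after Benjamini-Hochberg adjustment.

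**Figure D1:**
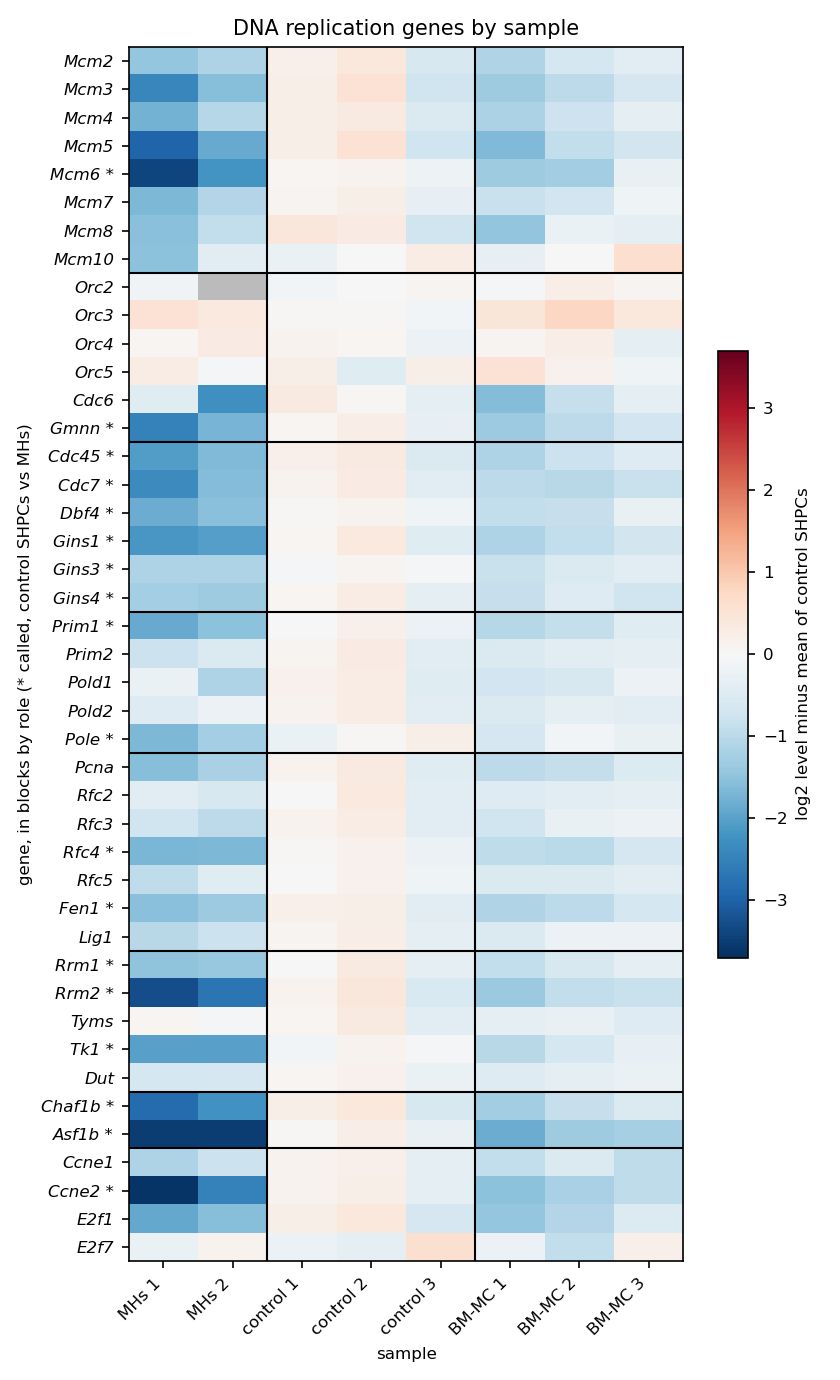
Each row is 1 of the 43 tested genes and each column 1 of the 8 samples. Colour gives the log2 level minus the mean of the 3 control SHPCs (red above, blue below, grey without a value), black lines part the roles and the groups, and a star marks the 18 genes called between control SHPCs and MHs. The MH columns are bluest, the BM-MC columns lie between, and the Orc2 to Orc5 rows are pale throughout.

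Helicase genes were higher in control SHPCs than in MHs for all 8 tested members, by 0.96 to 2.80, and 1 of them, Mcm6, passed. Mcm6, a subunit of the unwinding ring, was at -6.82 and -5.62 in MHs, at -3.37, -3.30 and -3.61 in control SHPCs and at -4.74, -4.72 and -3.71 in SHPCs with BM-MCs. All control SHPCs lay above the BM-MC samples, and these above both MHs, of which replicate 1 was not well above background. Its difference between control SHPCs and MHs was 2.80 (SE 0.42, adjusted p = 0.031). The other ring subunits differed by 1.28 (Mcm2), 1.996 (Mcm3), 1.40 (Mcm4), 2.41 (Mcm5) and 1.37 (Mcm7), with adjusted p from 0.069 to 0.13, and Mcm8, a relative that acts in recombination repair, by 1.23. Where several probes read 1 gene, a dimmer probe could pass when the brightest did not, as for Mcm5 (2.498, adjusted p = 0.023) and for 1 of the 3 tested Mcm4 probes (2.20, adjusted p = 0.034). This Mcm4 probe was well above background in 1 of the 2 MHs and in 1 of the 3 BM-MC samples. Mcm10, which helps to start the helicase, had the smallest difference of the group and was at -4.41 and -3.29 in MHs, at -3.13, -2.91 and -2.63 in control SHPCs and at -3.19, -2.89 and -2.28 in SHPCs with BM-MCs. MHs replicate 1 was lowest there, BM-MC replicate 3 was highest, and the difference between control SHPCs and MHs was 0.96 (SE 0.38, adjusted p = 0.24). Between SHPCs with and without BM-MCs, the differences of Mcm2 to Mcm8 ran from -0.56 to -1.07 and that of Mcm10 was 0.10, and none passed. For 7 of the 8 the group means ran from MHs through BM-MC samples to control SHPCs.

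The origin recognition and licensing genes split. Orc2, Orc3, Orc4 and Orc5, subunits of the complex that marks origins, differed between control SHPCs and MHs by 0.12, -0.45, -0.19 and -0.11, with adjusted p from 0.19 to 0.86, and the value of Orc2 rests on 1 MH sample because its spot on the other array was an outlier. Orc5 was at -5.23 and -5.57 in MHs, at -5.29, -5.95 and -5.28 in control SHPCs and at -4.96, -5.35 and -5.68 in SHPCs with BM-MCs. The 3 groups overlapped, with a standard error of 0.28 that exceeded the difference. Orc3 was at -2.64 and -2.79 in MHs, at -3.10, -3.12 and -3.26 in control SHPCs and at -2.71, -2.39 and -2.77 in SHPCs with BM-MCs. Its controls were the lowest samples, and every BM-MC sample lay above them, by 0.54 (SE 0.14, adjusted p = 0.18), although a second Orc3 probe gave 0.095. Gmnn encodes geminin, which binds Cdt1 and stops origins from being licensed again within a cycle. Gmnn was at -5.23 and -4.45 in MHs, at -2.65, -2.49 and -3.04 in control SHPCs and at -4.07, -3.71 and -3.43 in SHPCs with BM-MCs. The 3 groups did not overlap, with MHs lowest and control SHPCs highest, and the difference of the controls from MHs was 2.11 (SE 0.29, adjusted p = 0.021). For Cdc6, which loads the helicase ring, the MHs were at -5.32 and -7.14 and the difference of 1.35 did not pass (adjusted p = 0.25). Only 1 of the 2 MHs and 1 of the 3 BM-MC samples were well above background for Cdc6. Orc1, Orc6 and Cdt1 were not well above background on any array with marks.

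Each of the 6 tested firing genes passed as higher in control SHPCs than in MHs. Cdc45, which rides with the helicase ring, was at -2.67 and -2.21 in MHs, at -0.39, -0.25 and -1.12 in control SHPCs and at -1.74, -1.39 and -1.05 in SHPCs with BM-MCs. The lowest control lay below the highest BM-MC sample, while both MHs were lowest of all, and the difference between control SHPCs and MHs was 1.85 (SE 0.31, adjusted p = 0.045). Cdc7, the kinase that fires origins, was at -5.93 and -5.18 in MHs, at -3.43, -3.27 and -3.99 in control SHPCs and at -4.53, -4.59 and -4.38 in SHPCs with BM-MCs. Its BM-MC samples lay close to each other and apart from both other groups, and the control SHPCs exceeded MHs by 1.99 (SE 0.28, adjusted p = 0.021). Dbf4, which activates Cdc7, was at -5.06 and -4.78 in MHs, at -3.21, -3.11 and -3.40 in control SHPCs and at -4.15, -4.09 and -3.51 in SHPCs with BM-MCs. Its groups were also apart, with a difference of 1.68 (SE 0.22, adjusted p = 0.015). A second Dbf4 probe was not well above background on any array with marks. The GINS complex holds the helicase together, and 3 of its 4 subunits were tested. Gins1 was at -3.31 and -3.20 in MHs, at -1.08, -0.80 and -1.60 in control SHPCs and at -2.31, -2.07 and -1.84 in SHPCs with BM-MCs. The control SHPCs were higher than MHs by 2.09 (SE 0.25, adjusted p = 0.011), and no group overlapped another. Gins3 was at -4.47 and -4.47 in MHs, at -3.37, -3.23 and -3.41 in control SHPCs and at -4.15, -3.86 and -3.71 in SHPCs with BM-MCs. Its MH samples were level with each other and the difference, 1.13 (SE 0.15, adjusted p = 0.019), was the smallest among the firing genes. Gins4 was at -3.46 and -3.51 in MHs, at -2.14, -1.94 and -2.56 in control SHPCs and at -3.07, -2.69 and -2.96 in SHPCs with BM-MCs. It ran in the same order of groups without overlap and differed by 1.27 (SE 0.20, adjusted p = 0.037). Gins2 was not tested, being above background in both control SHPC samples with a mark and in no MH or BM-MC sample. It was at least 1.54-fold higher in control SHPCs than in MHs, where a dim array was given its own signal or, if higher, the least signal that any probe above background had there, and at least 1.12-fold higher than with BM-MCs. These bounds are those of 1 of its 2 probes, and the other was not well above background on any array with marks.

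Polymerase and primase genes differed less, with a median of 0.71 over the 5 tested, and 2 rose in control SHPCs. Prim1, the catalytic primase subunit that lays down RNA primers, was at -2.57 and -2.21 in MHs, at -0.68, -0.505 and -0.92 in control SHPCs and at -1.74, -1.59 and -1.16 in SHPCs with BM-MCs. Its groups did not overlap, and the control SHPCs exceeded MHs by 1.69 (SE 0.22, adjusted p = 0.015). Pole, the catalytic subunit of the leading strand polymerase, was at -6.43 and -6.02 in MHs, at -5.03, -4.72 and -4.57 in control SHPCs and at -5.39, -4.88 and -5.04 in SHPCs with BM-MCs. Control and BM-MC samples overlapped there, both MHs were below all of them and replicate 1 of the MHs was not well above background, and the difference was 1.45 (SE 0.22, adjusted p = 0.030). Pole was read by 1 of its 3 probes, and the others were not well above background on any array with marks. Prim2, the large primase subunit, and Pold1, the catalytic subunit of the lagging strand polymerase, differed by 0.67 and 0.71 and did not pass. Pold2, an accessory subunit of the same polymerase, was at -1.19 and -0.94 in MHs, at -0.57, -0.43 and -1.12 in control SHPCs and at -1.25, -1.04 and -1.10 in SHPCs with BM-MCs. Control SHPC replicate 3 lay within the range of MHs, and the difference of 0.36 (SE 0.21, adjusted p = 0.40) did not pass. Pola1 and Pola2, subunits of the polymerase that extends primers, were not well above background on any array with marks, and Pole2, the second polymerase epsilon subunit, was above background in 1 control SHPC sample.

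Among the clamp, clamp loader and Okazaki fragment genes, every one of the 7 tested was higher in control SHPCs, without overlap with MHs, and 2 passed. Rfc4, a subunit of the loader that places the Pcna clamp on DNA, was at -3.93 and -3.91 in MHs, at -2.21, -2.08 and -2.46 in control SHPCs and at -3.18, -3.24 and -2.88 in SHPCs with BM-MCs. Its MHs were level with each other and all groups were apart, and the difference of control SHPCs from MHs was 1.67 (SE 0.16, adjusted p = 0.0058). Fen1, the nuclease that trims Okazaki fragments, was at -0.47 and -0.28 in MHs, at 1.27, 1.30 and 0.65 in control SHPCs and at -0.032, 0.10 and 0.44 in SHPCs with BM-MCs. It too separated the 3 groups, with a difference of 1.45 (SE 0.23, adjusted p = 0.038). Pcna, the sliding clamp and a common stain for cycling cells, was at -1.25 and -0.88 in MHs, at 0.44, 0.63 and -0.14 in control SHPCs and at -0.66, -0.58 and -0.19 in SHPCs with BM-MCs. The groups did not overlap, and its difference of 1.38 (SE 0.26, adjusted p = 0.065) did not pass. Rfc2, another loader subunit, had the smallest difference and was at -1.64 and -1.81 in MHs, at -1.18, -0.84 and -1.60 in control SHPCs and at -1.70, -1.60 and -1.57 in SHPCs with BM-MCs. Its BM-MC samples overlapped the MHs and the control SHPCs were higher than MHs by 0.52 (SE 0.21, adjusted p = 0.25). Rfc3, Rfc5 and Lig1, the ligase that joins the fragments, differed by 0.85, 0.69 and 0.91, with adjusted p from 0.11 to 0.15.

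Nucleotide supply held some of the highest and the flattest genes. Rrm2, the regulated subunit of the reductase that makes deoxynucleotides, was at -0.86 and -0.28 in MHs, at 2.57, 2.83 and 1.87 in control SHPCs and at 1.05, 1.502 and 1.61 in SHPCs with BM-MCs. The groups were apart in the order MHs, BM-MC samples, control SHPCs, and the control SHPCs exceeded MHs by 2.99 (SE 0.32, adjusted p = 0.0072), a 7.96-fold difference. A second Rrm2 probe was not well above background in either MH sample, passed the filter on SHPC arrays only and gave at least 5.11-fold. Rrm1, the large subunit of the same enzyme, was at -0.51 and -0.41 in MHs, at 0.99, 1.30 and 0.64 in control SHPCs and at 0.062, 0.38 and 0.62 in SHPCs with BM-MCs. Its groups were apart by smaller steps, with a difference of 1.44 (SE 0.23, adjusted p = 0.038). Tk1, which salvages thymidine in S phase, was at -1.87 and -1.88 in MHs, at 0.03, 0.27 and 0.068 in control SHPCs and at -0.91, -0.54 and -0.17 in SHPCs with BM-MCs. The MHs were level with each other, every BM-MC sample lay between them and the controls, and the control SHPCs exceeded MHs by 1.999 (SE 0.21, adjusted p = 0.0070). Tyms, which makes thymidylate anew, was at -1.89 and -2.01 in MHs, at -1.89, -1.62 and -2.35 in control SHPCs and at -2.32, -2.24 and -2.42 in SHPCs with BM-MCs. Control SHPCs spanned the MHs, the BM-MC samples lay below both MHs, and the difference of control SHPCs from MHs was -0.004 (SE 0.21, adjusted p = 0.99). Dut, which clears dUTP, differed by 0.63 and did not pass (adjusted p = 0.12).

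Both tested genes of histone deposition rose. Asf1b, a chaperone that hands histones H3 and H4 to new DNA and whose probe was placed by the array's annotation at chr19:25867744-25867803 of build rn4, was at -7.74 and -7.73 in MHs, at -4.17, -3.98 and -4.501 in control SHPCs and at -6.07, -5.54 and -5.45 in SHPCs with BM-MCs. Neither MH sample was well above background, nor were BM-MC replicates 1 and 2, and the groups did not overlap. Control SHPCs exceeded MHs by at least 4.02-fold, with an adjusted p of 0.0025 on the measured dim signals in limma, a test that the gene entered through the SHPC arrays alone. Among the genes measured on both sides, the largest difference was that of Ccne2, given below. Chaf1b, a subunit of the chromatin assembly factor that works with Asf1b, was at -3.45 and -2.84 in MHs, at -0.39, -0.20 and -1.20 in control SHPCs and at -1.89, -1.44 and -1.14 in SHPCs with BM-MCs. Controls and BM-MC samples overlapped by a single pair, MHs lay below both, and the difference of control SHPCs from MHs was 2.55 (SE 0.35, adjusted p = 0.021). A second Chaf1b probe, not well above background in either MH sample, gave at least 2.96-fold and did not pass (adjusted p = 0.075). That probe, too, entered the limma test through the SHPC arrays alone. Uhrf1, which guides maintenance of DNA methylation, was not well above background on any array with marks. Chaf1a had no probe under its own name, and a probe that the array's description alone assigns to it differed by 1.48 between control SHPCs and MHs (adjusted p = 0.060).

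Of the S-phase entry genes, 1 of 4 tested passed. Ccne2, 1 of the pair of cyclin E genes that drive entry into S phase, was at -5.91 and -4.78 in MHs, at -2.16, -2.09 and -2.63 in control SHPCs and at -3.81, -3.48 and -3.24 in SHPCs with BM-MCs. The groups did not overlap, MHs replicate 1 was lowest, and the control SHPCs exceeded MHs by 3.06 (SE 0.35, adjusted p = 0.0090). Ccne1, its partner gene, was at -0.82 and -0.48 in MHs, at 0.46, 0.53 and 0.001 in control SHPCs and at -0.60, -0.21 and -0.62 in SHPCs with BM-MCs. Its BM-MC samples overlapped the MHs, and all lay below the controls, with differences of 0.98 (SE 0.22, adjusted p = 0.098) between control SHPCs and MHs and of 0.17 between BM-MC samples and MHs (adjusted p = 0.75). E2f1, an activating E2F factor, was at -3.07 and -2.77 in MHs, at -0.96, -0.81 and -1.79 in control SHPCs and at -2.62, -2.26 and -1.69 in SHPCs with BM-MCs. Controls and BM-MC samples overlapped while MHs lay below, and its difference of 1.73 (SE 0.36, adjusted p = 0.081) did not pass. E2f7, an E2F factor that represses, was at -5.04 and -4.67 in MHs, at -5.03, -5.17 and -4.20 in control SHPCs and at -5.02, -5.72 and -4.60 in SHPCs with BM-MCs on its brightest probe. The groups overlapped and the difference was 0.058 (SE 0.39, adjusted p = 0.95), whereas a second E2f7 probe gave 2.51 (adjusted p = 0.099), so that its 2 probes disagree. E2f8, the other repressing factor, was not well above background on any array with marks.

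**Figure D2:**
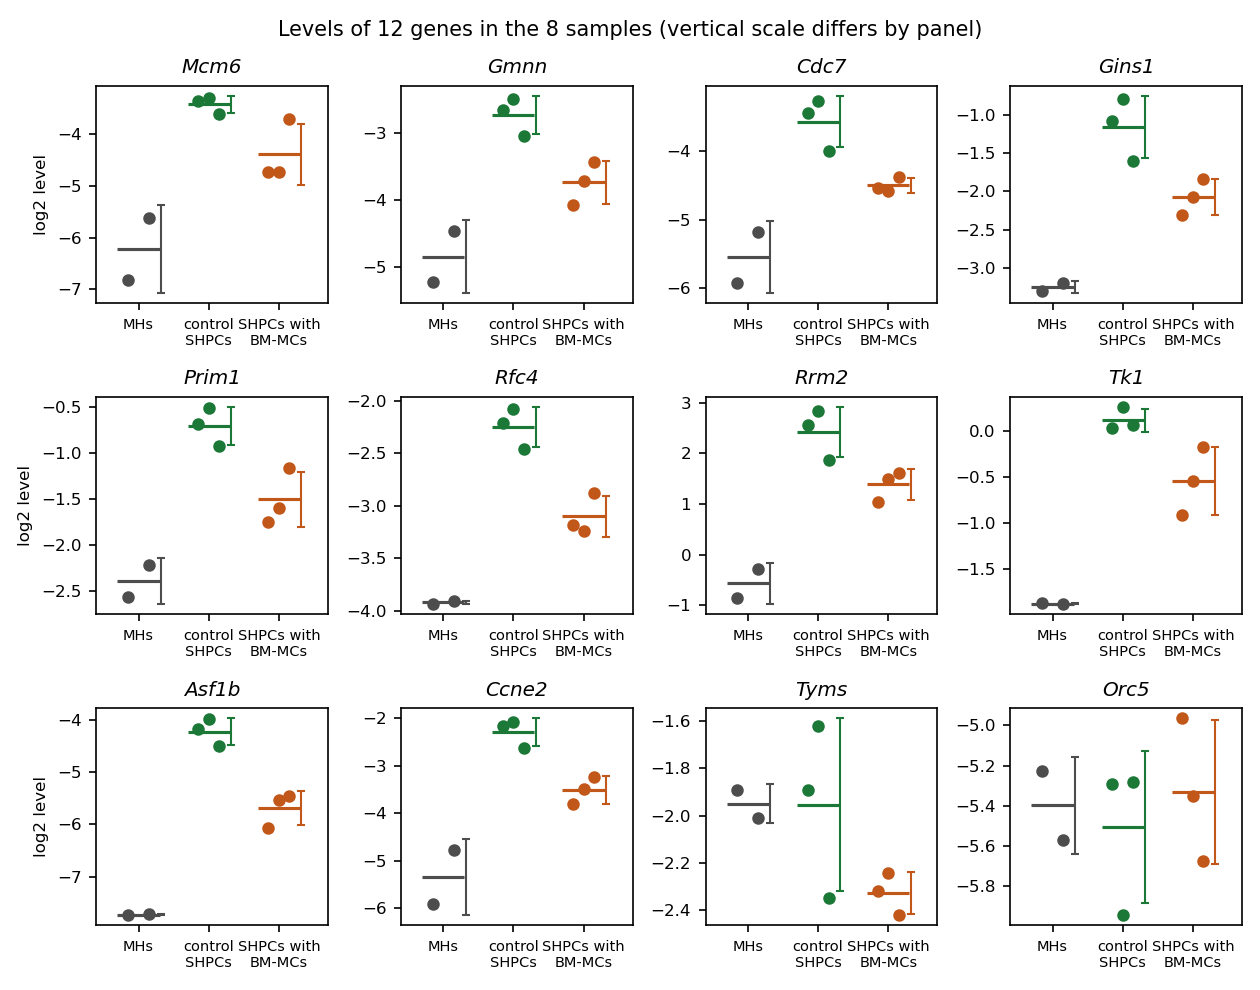
Dots are the log2 levels of 12 genes in the single samples (2 MHs, 3 control SHPCs, 3 SHPCs with BM-MCs), horizontal lines the group means and bars 1 SD, each panel with its own vertical scale. Control SHPCs lie above MHs in all panels but Tyms and Orc5, where the groups overlap.

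The second comparison sets SHPCs with BM-MCs against MHs. The BM-MC samples had the higher mean for 39 of the 43 genes, with a median difference of 0.59, or 1.51-fold (0.58 with Asf1b at its bound), against 0.0030 over all probes. That median was 0.39 with arrays scaled to their median and 1.17 when the slide set was blocked. Past the adjusted threshold, 1 gene rose and 0 fell (limma), where 0.32% of all probes rose and 0.0173% fell. At an unadjusted p under 0.05, limma had 22 higher and 0 lower, against 7.33% and 5.95% of all probes, and the methods' t-test 17 higher and 1 lower, against 4.38% and 4.86%. The gene that rose was Asf1b, not well above background in either MH sample or in BM-MC replicates 1 and 2. The BM-MC samples exceeded MHs in it by at least 1.45-fold, which passed on its measured dim signals (adjusted p = 0.024) but not once dim arrays were set at their floor (adjusted p = 0.26). Where only probes above background on every complete array were tested, Asf1b was left out and Tk1 passed in its place. Tk1 (1.34 (SE 0.21, adjusted p = 0.068)) and Rrm2 (1.95 (SE 0.32, adjusted p = 0.077)) did not pass in the fit over all 23111 probes. All BM-MC samples lay above every MH sample with a value for 29 genes, against 16.1% of all probes, and above both MHs for 28 of the 42 with both values. The members of the helicase ring differed by between 0.56 (Mcm2) and 1.83 (Mcm6), the firing genes by between 0.56 (Gins3) and 1.18 (Gins1), and Tyms, E2f7, Orc4 and Pold2 had differences of -0.38, -0.25, -0.18 and -0.064. A second tested probe ran the other way for E2f7 (1.87) and for Orc4 (0.29), with all BM-MC samples above both MHs. For Orc3, counted as higher at 0.088, a second tested probe gave -0.30. With each array scaled to its median, 33 of the 43 were higher than MHs in place of 39, and Orc2, Orc3, Orc5, Pold1, Rfc2 and Ccne1 turned. No set of arrays on the slide held both MHs and BM-MC samples, so that position on the slide and group cannot be told apart. With control SHPC replicate 3 or BM-MC SHPC replicate 1 left out, 2 genes passed (Asf1b with Rrm2 or with Tk1), and 0 passed when either MH sample, either of the first 2 control SHPC samples or the second BM-MC sample was left out.

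The third comparison asks what differs between clusters with and without BM-MC transplantation. With BM-MCs, 38 of the 43 genes had the lower mean, with a median difference of -0.69, or 1.61-fold lower, against 0.018 over all probes, and with each array scaled to its median 42 of the 43 did. That difference was -0.44 after normexp and quantile normalization and -0.33 when the slide set was blocked. None passed the adjusted threshold in limma, where 0.0216% of all probes rose and 0.0% fell, and the lowest adjusted p among them was 0.096. At an unadjusted p under 0.05, 27 of the 43 were lower, against 5.92% of all probes, and 1 (Orc3) was higher, against 2465 of all 23111 probes. All BM-MC samples lay below every control for 19 genes, against 11.7% of all probes. A p that misses the threshold does not show that the groups were alike.

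The largest such differences among genes above background on all 3 BM-MC arrays were in Ccne2 (-1.22 (SE 0.21, adjusted p = 0.13)) and Mcm5 (-1.07 (SE 0.39, adjusted p = 0.27)). Asf1b, above background on 1 of the 3, was lower in each BM-MC sample than in any control on its measured signals (adjusted p = 0.096). Rrm2 was at -1.04 (SE 0.28, adjusted p = 0.19), Gmnn at -1.01 (SE 0.22, adjusted p = 0.15), E2f1 at -1.003 (SE 0.34, adjusted p = 0.25), Cdc7 at -0.94 (SE 0.20, adjusted p = 0.15) and Rfc4 at -0.85 (SE 0.16, adjusted p = 0.13). Genes near 0 on their brightest probe were Orc4 (0.010), Orc2 (0.097) and Mcm10 (0.10), each below 0 with arrays scaled to their median. A second tested probe gave 0.40 for Orc4 and 0.30 for Orc2. Without control SHPC replicate 3, 5 genes passed as lower with BM-MCs (Cdc7, Fen1, Rrm2, Asf1b and Ccne2), and without any other single sample 0 did. Within the second set of arrays, where the 3 BM-MC samples stood beside control SHPC replicate 3, the median difference was -0.33 and 38 of the 43 genes were lower, with a single control and no test. The methods' t-test found 16 of the 43 lower and 1 higher at an unadjusted p under 0.05, against 6.82% and 8.12% of all probes, and 0 after Benjamini-Hochberg adjustment.

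**Figure D3:**
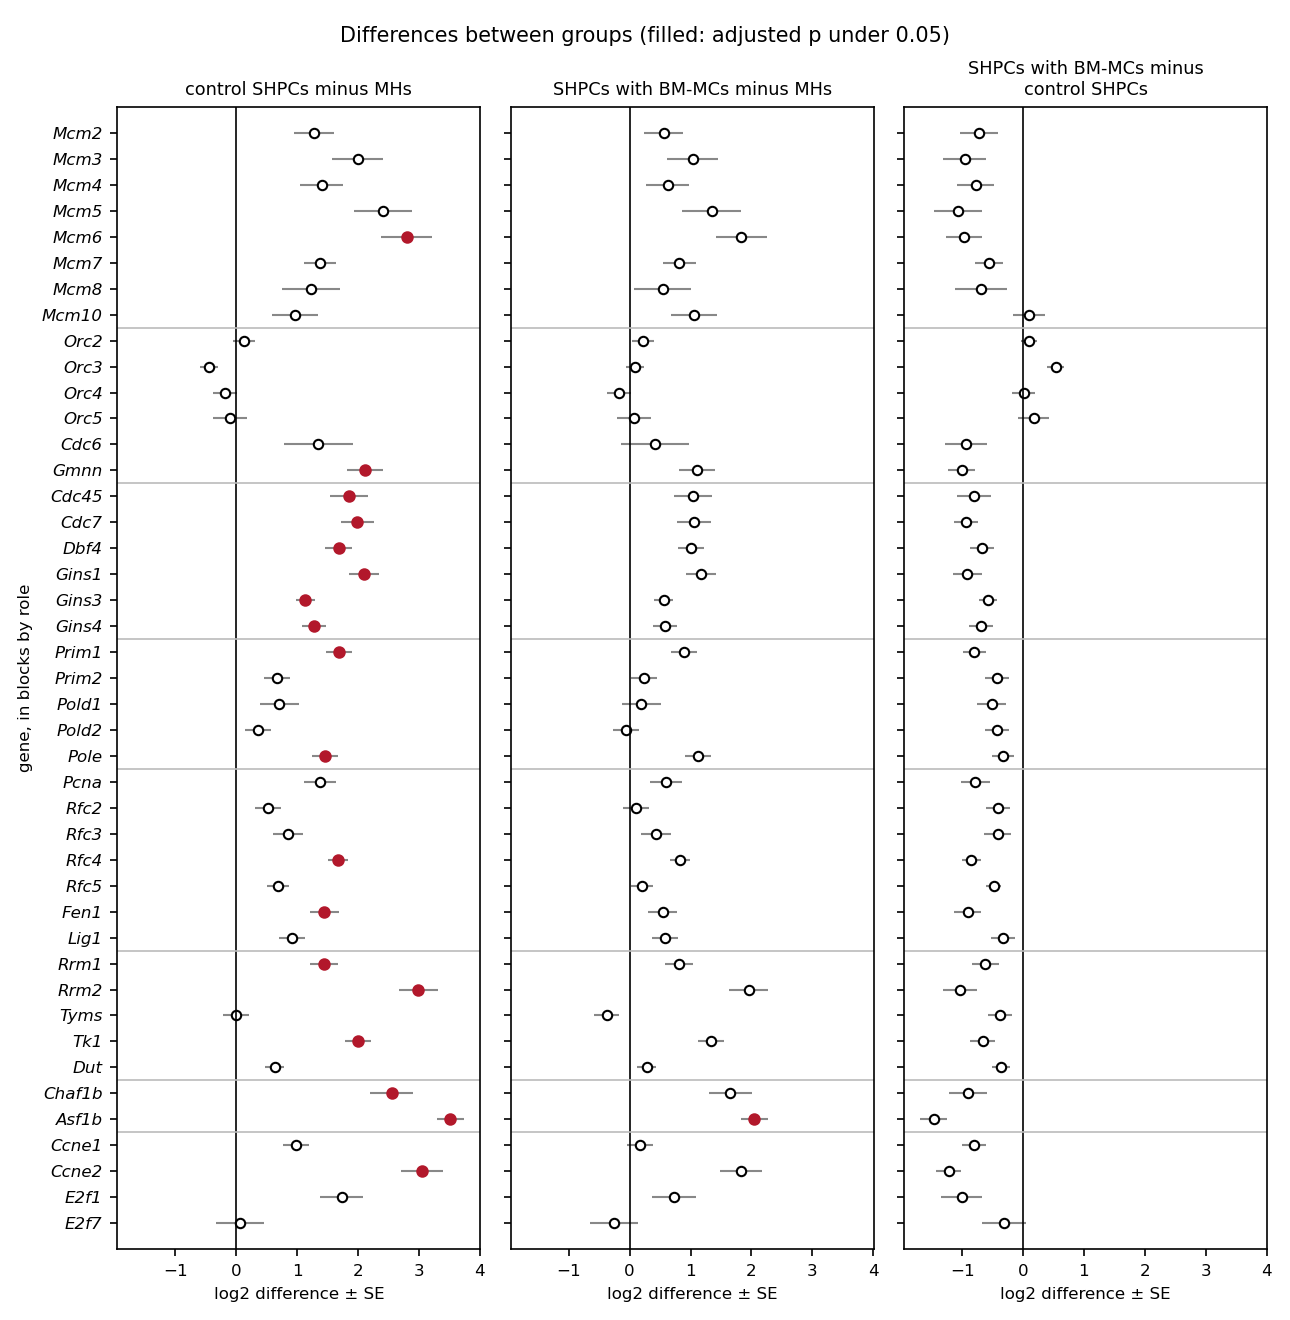
Points are the log2 differences of the 43 tested genes, with bars of 1 SE, in the 3 comparisons, and filled points have an adjusted p under 0.05. Asf1b is drawn at its measured signals, which were dim in MHs and allow only a bound. Filled points number 18 on the left, 1 in the middle (Asf1b) and 0 on the right, where 38 points lie below 0. The panels share samples and are not independent of each other.

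Group means ran from MHs through BM-MC samples to control SHPCs for 35 of the 43 genes, an order that 19.4% of all tested probes had. Within groups the genes also moved together by sample. Control SHPC replicate 3 was the lowest control for 37 of the 43, BM-MC SHPC replicate 1 the lowest of its group for 35, and MHs replicate 1 the lower MH for 33 of the 42 with both values. Relative to the control mean of each gene, the median over the genes was 0.11, 0.24 and -0.35 in control SHPC replicates 1 to 3, -0.92, -0.66 and -0.38 in BM-MC replicates 1 to 3, and -1.54 and -1.22 in the MHs. Control replicate 3 and BM-MC replicate 3 thus stood side by side. Control replicate 3 is the sample with the high erythroid markers given above and the single control on the second set of arrays.

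**Figure D4:**
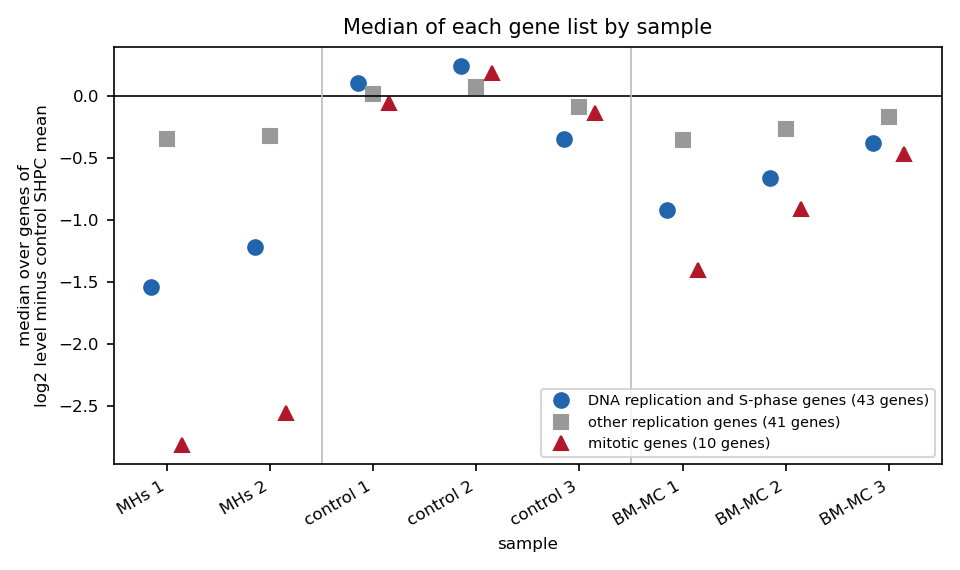
Each point is the median, over the tested genes of a list, of the log2 level minus the mean of the 3 control SHPCs, for the 8 samples. Circles are the 43 genes described here, from -1.54 in MHs replicate 1 to 0.24 in control replicate 2, squares 41 other replication genes, and triangles 10 mitotic genes, which reach -2.82.

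Other genes of replication were read on the same arrays. Of 55 further genes that load, protect or regulate the fork, 41 were tested and 30 were higher in control SHPCs than in MHs, with a median difference of 0.30. Past the adjusted threshold in limma 3 rose and 0 fell, against 0.917% and 0.216% of all probes. At an unadjusted p under 0.05, 17 of the 41 were higher and 2 lower, against 1898 and 2538 of all 23111 probes. The 3 were Ccna2, the cyclin of S and G2 phase (3.51, adjusted p = 0.0025), Top2a, which untangles replicated DNA (3.37, adjusted p = 0.0033), and Dctpp1, which clears modified dCTP (1.12, adjusted p = 0.045). Clspn, which couples the fork to the checkpoint kinase, ran the other way, at -4.72 and -4.63 in MHs, at -5.93, -6.40 and -5.76 in control SHPCs and at -4.16, -4.22 and -3.65 in SHPCs with BM-MCs. No control SHPC sample was well above background. The BM-MC samples were at least 3.60-fold and the MHs at least 2.27-fold above the controls, and neither difference passed in limma (adjusted p = 0.070 and 0.053). Clspn passed the filter on MH and BM-MC arrays only, so that it had to differ from the controls. Of its 3 probes, 1 was tested. Of 10 mitotic genes, such as Mki67, Ccnb1, Cdk1 and Plk1, 8 rose in control SHPCs over MHs and 5 with BM-MCs over MHs, against 0.917% and 0.32% of all probes. None passed between SHPC groups, where 0.0% of all probes fell. All 10 were lower there with BM-MCs, and 8 had an unadjusted p under 0.05 in limma, against 5.92% of all probes. The median difference of the mitotic genes between control SHPCs and MHs was 2.65.

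For 11 genes more than 1 tested probe was bright enough to be measured in each group. All probes of a gene had the same sign for 11 of 11 between control SHPCs and MHs, for 11 of 11 between the SHPC groups and for 8 of 11 between BM-MC samples and MHs. Their differences lay within 0.5 of each other for 8, 11 and 9 of the 11. The exceptions between control SHPCs and MHs were E2f7, Mcm3 (0.71 and 1.996) and Mcm4. For 8 genes printed on 10 spots each (Mcm2, Mcm3, Mcm5, Mcm7, Fen1, Lig1, Rrm1 and Rrm2), the SD between spots of 1 array ran from 0.033 to 0.15, below the SD between samples of the control SHPCs for each of these genes.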

How the data were processed

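Total RNA (100 ng per sample) was labelled with Cy3 and hybridised to 1-colour Agilent rat arrays, and the authors read them with Agilent Feature Extraction 10.7. The deposited intensity is the scanner's processed signal, with background already subtracted and no scaling between arrays. A value table deposited by the authors holds the same signals and supplied all values, while background and outlier marks came from the scanner files. For control SHPC replicate 2 the scanner file breaks off at 20903 of 62976 features, and its marks did not enter the filter. All 8 arrays lay on 1 slide read in 1 scan, and none had a saturated spot.

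From each log2 signal the array's 75th percentile was subtracted, outlier spots were left out and spots of a probe were averaged. Leaving out control SHPC replicate 2, 7 arrays had marks for all spots, and the 23111 probes well above background on 3 or more of them were fitted in limma (version 3.58.1, R version 4.3.3). Adjusted p-values (Benjamini-Hochberg) under 0.05 were called. All 8 samples entered the comparisons with MHs, and the 6 SHPC samples the comparison between SHPC groups. The methods name a Student's t-test, run as an alternative. On simulated data with these groups and 22969 probes, limma recovered 44%, 37% and 39% of 2-fold changes for control SHPCs against MHs, BM-MC SHPCs against MHs and the SHPC groups, and 79%, 84% and 81% of 4-fold changes. The simulated spread was drawn for each probe on its own, so that it lacks the shared movement of genes by sample described above. The number of arrays limits the precision.

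The genes, their roles and the second lists were chosen with earlier results of these data known. Values in every sample are given for genes that passed in any comparison and, in each role, for those with the largest and smallest absolute difference between control SHPCs and MHs. Orc3, Pcna, Ccne1, E2f1 and Clspn were added after their values were seen. Alternatives were the scaling, the dim-probe filter and floor, outlier spots, normexp background correction with quantile normalization on the 7 complete arrays, the replicate number or the slide set as a block, other samples in the fit, the mean of probes, and each sample left out. Probe positions are those of the array's annotation (rn4), for which no genome was used here, so exon and UTR positions are not given.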

Additional observations from a re-analysis of the deposited data

How the results depend on the processing

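The median difference over the 43 genes kept its direction in each comparison under each alternative. Between control SHPCs and MHs, 18 genes rose, and 6 without a filter, 8 with normexp and quantile normalization on 7 arrays, 7 with the replicate number as a block, 11 with only the samples compared in the fit, 18 of 37 (15 of them the same genes) with probes above background on every complete array, 0 with the methods' t-test after adjustment, and 1 to 22 with 1 sample left out. The median of 1.37 became 0.83 with normexp and quantile normalization. Between BM-MC SHPCs and MHs, 1 gene rose, and 0 did with quantile normalization, no filter, a floor for dim spots, normexp, the replicate block, the slide set as a block, only the samples compared, or the methods' t-test, 2 did with the mean of probes (Asf1b and Rrm2), Tk1 alone did with probes above background on every complete array, and 0 to 2 with 1 sample left out. The median of 0.59 became 0.39 with arrays scaled to their median and 1.17 when the slide set was blocked. Between the SHPC groups 0 genes passed, and 1 (Asf1b) did without scaling and 0 to 5 with 1 sample left out. The median of -0.69 became -0.33 when the slide set was blocked and -0.44 with normexp and quantile normalization. Among genes given with values in every sample by the rule, directions between control SHPCs and MHs turned for Orc5, from -0.11 to 0.0095 with normexp and to between -0.28 and 0.11 with 1 sample left out, Tyms, from -0.0044 to 0.12 with the replicate block, 0.19 with the slide set block and between -0.17 and 0.19 with 1 sample left out, and E2f7, from 0.058 to -0.030 without scaling, -0.22 with the replicate block, -0.24 with the slide set block and between -0.24 and 0.24 with 1 sample left out. Over all 43 genes and all alternatives, 4 turned between control SHPCs and MHs, 12 between BM-MC SHPCs and MHs and 7 between the SHPC groups (1, 6 and 4 of them under another scaling), none of them called. The causes were not tested.

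Scaling each array to its median moved the median of all probes to -0.19 between BM-MC SHPCs and MHs and to -0.17 between the SHPC groups. Relative to it, the median over the 43 genes between the SHPC groups was -0.71, as in the values reported. Replicate numbers are shared between groups in the labels, but they were not taken to pair samples, since the deviations of control and BM-MC samples of the same number correlated between 0.078 and 0.17 across probes, and not every sample correlated best with its own number. With 2 MHs and 3 samples in each SHPC group, 1 sample left out leaves a lone MH that is assumed to vary like the other groups. Between control SHPCs and MHs, Cdc45 and Gins4 passed in 7 of 21 alternatives, Fen1 in 8, Rrm1 in 9, Pole in 9 of 20 and Mcm6 in 10 of 20, and the other 11 called genes without Asf1b in 12 to 19 of 21. Asf1b, dim in both MHs, is left out where every array must be above background, and its fold is a bound.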
